A study of Mus musculus with 28 samples.

Results

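Hybrid dendritic cells were compared with type 1 conventional dendritic cells (cDC1) in mice that lack Nfil3, a transcription factor of the PAR bZIP family needed for the development of several lymphoid and dendritic lineages. The comparison rests on 4 of the 28 libraries of the series, chosen by their labels: 2 of hybrid cells and 2 of cDC1, all from the spleen of C57BL/6 mice of genotype Irf8 +32H/H Nfil3-/-. Both populations therefore carried the H allele of the Irf8 enhancer at +32 kb on both chromosomes and both lacked Nfil3, so that by the labels the populations differ in nothing but the sorted cell. The same pair of populations from Irf8 +32H/H mice with Nfil3, written H/H below, was profiled in the same experiment with 2 libraries each, and the H/H Nfil3-/- cells are written Nfil3-/-. Wild-type (WT) libraries were compared for lineage genes only: 2 of WT cDC1 in this experiment, and 2 of WT cDC1 and 2 of WT cDC2 in an earlier one. That earlier experiment also held 2 libraries each of H/H hybrid cells and H/H cDC1. The 2 WT cDC1 libraries of this experiment also entered its joint fit and principal component analysis. So did its 2 Zeb2 enhancer mutant hybrid libraries, for which no comparison is reported. Their label gives +32H/H as well, but H/H below does not include them. The labels call the 2 libraries of a group replicates and give neither age, sex, sort gates nor whether hybrid cells and cDC1 came from the same animals. P-values thus rest on the spread between libraries within groups, taken over all 12 libraries of the experiment, which may be partly technical.

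Conventional dendritic cells take up antigen and present it to T cells. In mouse spleen, cDC1 depend on IRF8 and BATF3, carry XCR1, CLEC9A and CD8α, and are known for cross-presenting antigen of dead cells to CD8 T cells. The type 2 cells (cDC2) depend more on IRF4 and ZEB2, carry SIRPα and CD11b, and are known for presenting to CD4 T cells. IRF8, BATF3, NFIL3, ID2 and ZEB2 belong to a network that sets this choice in progenitors, in which NFIL3 is known to restrain Zeb2.

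The Nfil3-/- hybrid libraries held 18495187 and 22708493 counts and the Nfil3-/- cDC1 libraries 18558391 and 19405763, within the 17540496 to 22708493 of the experiment. Expression is given in CPM, counts divided by the scaled library size so that libraries of different depth can be compared. For Xist, Ddx3y and the summed levels of gene lists the total was left unscaled. Nfil3 itself was read at 5.62 and 5.70 CPM in Nfil3-/- hybrid cells and at 3.68 and 2.76 CPM in Nfil3-/- cDC1, against 41.5 and 55.3 CPM in H/H hybrid cells and 36.9 and 35.7 CPM in H/H cDC1. All 4 knockout libraries lay far below all 4 H/H libraries, and reads were not at 0; where in the gene they lie was not analysed here. In both Nfil3-/- populations replicate 2 carried Xist (187 CPM in hybrid cells, 171 CPM in cDC1) and replicate 1 carried the Y-linked Ddx3y (75.7 and 66 CPM), so each group held 1 female and 1 male library. All H/H and WT libraries of the experiment were male by these genes. Of the Zeb2 enhancer mutant hybrid libraries, replicate 2 carried Xist (311 CPM) and replicate 1 Ddx3y (81.7 CPM). In a principal component analysis of autosomal genes the first component (43% of the variance) separated hybrid cells from cDC1, and the second (17%) placed the Nfil3-/- libraries at -32.6 to -39.3 and all others at 6.3 to 30.1.

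Without Nfil3, hybrid cells still differed from cDC1 in the direction of cDC2. Zeb2, which encodes a repressor that favours cDC2 over cDC1, had 19.5 and 27.8 CPM in Nfil3-/- hybrid cells and 4.76 and 5.05 CPM in Nfil3-/- cDC1. Both hybrid libraries lay above both cDC1 libraries, a 4.82-fold rise (log2 fold change 2.27, SE 0.285, adjusted p = 0.000258, edgeR quasi-likelihood test with Benjamini-Hochberg adjustment over 14504 genes; the same test gives every adjusted p below). Sirpa, which encodes the inhibitory receptor that marks cDC2, had 130 and 139 CPM in Nfil3-/- hybrid cells against 16.5 and 14.6 CPM in Nfil3-/- cDC1. The groups were far apart, an 8.63-fold rise (log2 fold change 3.11, SE 0.178, adjusted p = 3.06e-08). Cd8a, the α chain of CD8 that splenic cDC1 carry, had 3.15 and 2.92 CPM in Nfil3-/- hybrid cells against 37 and 25 CPM in Nfil3-/- cDC1. Here both hybrid libraries were lower, by 10.2-fold (log2 fold change -3.35, SE 0.293, adjusted p = 3.55e-05). Over all genes, 26% had both hybrid libraries above both cDC1 libraries and 25.2% both below. The labels' names thus fit these 3 markers. Sort gates are not given, and a gene used to sort the cells would differ by construction, which was not tested for Sirpa, Cd8a or Xcr1. Zeb2 lies on the minus strand of chromosome 2 (44983632 to 45117395), Sirpa on its plus strand (129592835 to 129632228) and Cd8a on the plus strand of chromosome 6 (71373427 to 71379173), by GENCODE M21 on GRCm38.

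**Figure D1:**
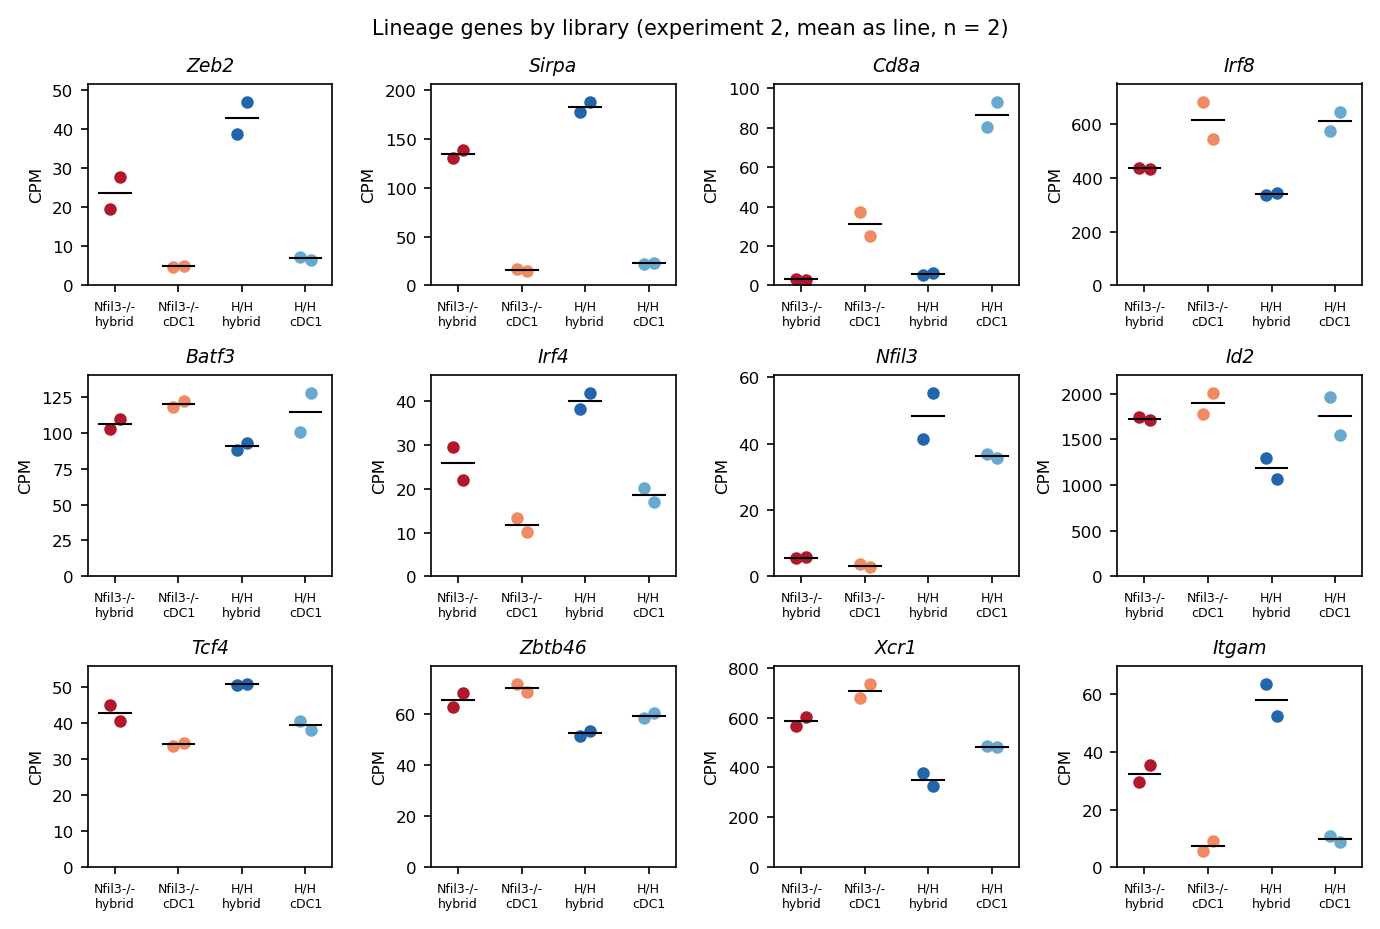
Expression (CPM, linear axis from 0) of 12 lineage genes in the 2 libraries of Nfil3-/- hybrid cells, Nfil3-/- cDC1, H/H hybrid cells and H/H cDC1 (points; line, mean). Zeb2, Sirpa and Itgam stand higher and Cd8a lower in hybrid cells of both genotypes, while Batf3, Id2, Zbtb46 and Xcr1 stay within 1.21-fold in the Nfil3-/- pair.

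Members of the transcription factor network moved far less. Irf8, the factor that specifies cDC1, had 438 and 435 CPM in Nfil3-/- hybrid cells against 684 and 545 CPM in Nfil3-/- cDC1. It fell by 0.49 on the log2 scale (adjusted p = 0.0476), a call that was lost without either hybrid library or cDC1 replicate 1 (adjusted p up to 0.339). Irf4, which supports cDC2, had 29.6 and 22.1 CPM in Nfil3-/- hybrid cells against 13.3 and 10.1 CPM in Nfil3-/- cDC1 (log2 fold change 1.14, adjusted p = 0.0477). That call too was lost without any 1 of the 4 libraries (adjusted p 0.0574 to 0.332). Batf3, the partner of IRF8, had 103 and 110 CPM in Nfil3-/- hybrid cells and 118 and 122 CPM in Nfil3-/- cDC1, and did not pass (log2 fold change -0.18, adjusted p = 0.542). Id2, an inhibitor of E proteins, stood at 1740 and 1710 CPM in Nfil3-/- hybrid cells and at 1780 and 2010 CPM in Nfil3-/- cDC1 (log2 fold change -0.13, adjusted p = 0.708). Neither Zbtb46, the pan-cDC factor (log2 fold change -0.10, adjusted p = 0.715), nor Tcf4, an E protein of plasmacytoid cells (log2 fold change 0.33, adjusted p = 0.157), passed.

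Of 27 dendritic cell transcription factors tested, 5 were called higher and 1 lower. Over all genes 4.02% were called higher and 1.26% lower, and the list's median log2 fold change was 0.03 against -0.003 over all genes. Besides Zeb2 and Irf4, the higher ones were Prdm1, Klf4 and the reads left of Nfil3. Prdm1, which encodes BLIMP-1, had 21.6 and 23.0 CPM in Nfil3-/- hybrid cells against 6.22 and 8.06 CPM in Nfil3-/- cDC1 (log2 fold change 1.64, adjusted p = 4.7e-05). Its 2 hybrid libraries were close together and well above both cDC1 libraries. Klf4, needed by a subset of cDC2, had 147 and 142 CPM in Nfil3-/- hybrid cells and 78.6 and 102 CPM in Nfil3-/- cDC1 (log2 fold change 0.67, adjusted p = 0.0193). The rise of the Nfil3 reads (log2 fold change 0.82, adjusted p = 0.0299) was lost without either hybrid library or cDC1 replicate 2 (adjusted p up to 0.301). With single libraries left out, 2 or 3 of the list were called higher.

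In all, 766 of 14504 genes (5.28%) were called between hybrid cells and cDC1 of Nfil3-/- mice, 583 higher (4.02%) and 183 lower (1.26%). At least 2-fold changes made up 338 of the higher (2.33% of genes tested) and 73 of the lower calls (0.503%). The count depended on single libraries: 415 were called without hybrid replicate 1, 393 without hybrid replicate 2, 519 without cDC1 replicate 1 and 347 without cDC1 replicate 2, where 390, 365, 448 and 320 of the 766 stayed called. The direction of all 766 was the same in each of these fits. These genes were chosen in the full fit and the remaining libraries were reused, so this was largely given in advance.

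Among called genes that reached 10 CPM in the higher group without overlap of the libraries, the largest rise was that of Clec4a3, a C-type lectin of the DCIR family, with 10.9 and 25.6 CPM in Nfil3-/- hybrid cells against 0.325 and 0.051 CPM in Nfil3-/- cDC1 (log2 fold change 6.59, SE 0.529, adjusted p = 6.15e-06). C1qb, a chain of complement C1q, had 50.2 and 85.1 CPM in Nfil3-/- hybrid cells against 1.68 and 1.94 CPM in Nfil3-/- cDC1 (log2 fold change 5.22, SE 0.355, adjusted p = 9.18e-06). Both genes were close to 0 in cDC1 and clearly read in each hybrid library, with hybrid replicate 2 the higher. Clec4a1, another DCIR lectin, had 46.4 and 72.1 CPM in Nfil3-/- hybrid cells and 1.84 and 3.06 CPM in Nfil3-/- cDC1 (log2 fold change 4.59). Next came Sirpb1c (4.54), an activating relative of SIRPα. Pilra, an inhibitory paired receptor (4.45), Fcgr3, a low-affinity receptor for IgG (4.34), and C1qa (4.19) were of like size. Cd209a, a DC-SIGN relative of cDC2, rose by 4.19, with 202 and 311 CPM in Nfil3-/- hybrid cells against 12.6 and 15.5 CPM in Nfil3-/- cDC1, a call just lost without cDC1 replicate 2 (adjusted p = 0.0505). Sirpb1a, another activating relative of SIRPα, rose by 4.0, and Adgre4, an adhesion receptor of myeloid cells, by 3.99. The Clec4a, Sirpb1 and Pilr families hold near-identical copies, so how reads were shared among their members is uncertain.

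Among the falls ranked in the same way, Gcsam, a signalling adaptor named for germinal centre B cells, came after Cd8a. It had 28.2 and 26.0 CPM in Nfil3-/- hybrid cells against 153 and 165 CPM in Nfil3-/- cDC1 (log2 fold change -2.55, SE 0.131, adjusted p = 1.85e-08). Cd24a, a surface glycoprotein high on cDC1, had 25.9 and 20.2 CPM in Nfil3-/- hybrid cells against 105 and 131 CPM in Nfil3-/- cDC1 (log2 fold change -2.36). In neither gene did a library overlap between the groups, and 25.2% of all genes were lower without overlap. Ahnak, a large scaffold protein, fell by 2.12, P3h2, a collagen prolyl hydroxylase, by 1.58, Ttc39a by 1.54 and Clnk, an adaptor of immune receptors, by 1.43. The calls of Dbn1 (log2 fold change -2.14) and Dkk3 (-1.58) were less stable: Dbn1 lost its call without any 1 library (adjusted p 0.101 to 0.163) and Dkk3 without hybrid replicate 2 (adjusted p = 0.0839).

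To show what stands at the starts of these genes, promoters (250 bases before to 50 after the start, RefSeq on GRCm38.p6) were searched on both strands for an IRF element (GAAA, any 2 bases, GAAA) and an ETS-IRF element (GGAA, any 2 bases, GAAA), at which IRF4 or IRF8 can bind alone or with PU.1. Of the 10 largest rises 9 had a RefSeq promoter and 4 of these held at least 1 of the elements, as did 1 of the 6 largest falls that had one. These 5 are shown because they hold a match, in capitals, which reads in either direction. A match is a run of letters and not evidence of binding.

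Clec4a1 (chr6:122921598-122921897, plus strand): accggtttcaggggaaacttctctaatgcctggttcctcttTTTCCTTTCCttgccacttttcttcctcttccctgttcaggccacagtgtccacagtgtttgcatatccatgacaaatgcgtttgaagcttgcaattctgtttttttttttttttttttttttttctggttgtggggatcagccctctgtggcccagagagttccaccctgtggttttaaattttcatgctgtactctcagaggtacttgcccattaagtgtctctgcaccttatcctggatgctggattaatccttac
Pilra (chr5:137836229-137836528, minus strand): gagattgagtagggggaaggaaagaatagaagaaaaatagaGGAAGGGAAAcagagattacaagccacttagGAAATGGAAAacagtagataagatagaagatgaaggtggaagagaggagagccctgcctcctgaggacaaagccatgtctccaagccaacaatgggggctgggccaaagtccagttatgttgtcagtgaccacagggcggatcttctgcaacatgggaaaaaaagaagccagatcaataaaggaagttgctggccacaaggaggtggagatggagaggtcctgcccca
Cd209a (chr8:3748935-3749234, minus strand): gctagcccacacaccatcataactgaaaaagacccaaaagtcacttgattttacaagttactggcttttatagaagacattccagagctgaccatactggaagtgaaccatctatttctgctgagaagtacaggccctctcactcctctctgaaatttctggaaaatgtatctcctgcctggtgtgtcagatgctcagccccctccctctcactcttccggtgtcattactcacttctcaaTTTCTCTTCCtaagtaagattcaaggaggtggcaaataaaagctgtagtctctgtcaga
Sirpb1a (chr3:15426378-15426677, minus strand): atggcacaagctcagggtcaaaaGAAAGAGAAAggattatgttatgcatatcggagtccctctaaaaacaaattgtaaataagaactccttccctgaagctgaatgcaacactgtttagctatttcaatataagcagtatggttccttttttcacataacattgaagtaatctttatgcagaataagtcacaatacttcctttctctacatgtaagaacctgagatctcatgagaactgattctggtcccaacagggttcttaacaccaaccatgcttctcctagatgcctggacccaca
Cd8a (chr6:71373177-71373476, plus strand): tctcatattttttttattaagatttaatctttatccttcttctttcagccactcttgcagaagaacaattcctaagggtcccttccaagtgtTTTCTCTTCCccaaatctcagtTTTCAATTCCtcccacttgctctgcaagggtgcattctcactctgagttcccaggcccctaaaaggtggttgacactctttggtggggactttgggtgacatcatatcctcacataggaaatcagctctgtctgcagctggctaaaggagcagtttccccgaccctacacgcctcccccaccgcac

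Cd8a, the largest of these falls, holds 2 ETS-IRF elements, and Pilra holds 1 of each kind. Of all 27025 promoters, 3.49% held the IRF element and 2.79% the ETS-IRF element, and over those of the genes tested 3.41% and 2.61%. Among genes called higher in Nfil3-/- hybrid cells the shares were 8.72% and 5.5% (38 and 24 of 436 promoters), and among genes called lower 5.34% and 1.53% (7 and 2 of 131). The D-box TTATGTAA or TTACGTAA, to which NFIL3 binds, was held by 0.917% of the higher and 0.763% of the lower genes, against 0.695% of the genes tested. The E-box CAGGTG, a letter run of ZEB2 sites, stood in 20.2% of the higher, 19.8% of the lower and 16.9% of the tested, and the AP-1 element TGANTCA, shared by BATF factors, in 9.17%, 9.16% and 4.9%. The IRF and ETS-IRF elements share letters, so a promoter can hold both in overlapping runs. These shares are descriptions, and no window without a match speaks about a factor.

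The genes that moved were mostly those that separate WT cDC1 from WT cDC2. In WT cells of the earlier experiment 2328 of 16036 genes (14.5%) were called at least 2-fold higher in cDC2, here cDC2-high, and 1256 (7.83%) at least 2-fold higher in cDC1, here cDC1-high. Of 1867 cDC2-high genes tested, 462 (24.7%) were called higher in Nfil3-/- hybrid cells and 1 lower, with a median log2 fold change of 0.58. Of 1218 cDC1-high genes, 138 (11.3%) were called lower and 8 higher, with a median of -0.30. Among 11262 genes of neither class 111 were called higher and 44 lower, with a median of -0.02. Put the other way, 79.2% of the higher calls were cDC2-high and 75.4% of the lower calls cDC1-high. With single libraries left out, 229 to 315 cDC2-high genes were called higher and 54 to 78 cDC1-high genes lower.

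The whole class shift can be read for each library. Over genes at least 4-fold apart in WT cells, the mean log2(CPM + 0.1) of cDC1-high minus that of cDC2-high genes was 0.69 and 0.60 in Nfil3-/- hybrid cells against 2.27 and 2.15 in Nfil3-/- cDC1. It was 0.24 and 0.27 in H/H hybrid cells against 2.24 and 2.32 in H/H cDC1, and 3.68 and 3.60 in WT cDC1 of the same experiment. By this difference the hybrid libraries without Nfil3 stood above those with Nfil3, and cDC1 of both genotypes overlapped. Over cDC2-high genes alone Nfil3-/- hybrid libraries (1.66 and 1.67) lay below H/H hybrid libraries (2.07 and 2.03). Over cDC1-high genes alone they overlapped (2.34 and 2.27 against 2.31 and 2.3). Nfil3-/- cDC1 lay below H/H cDC1 over cDC1-high genes (2.89 and 2.7 against 2.99 and 3.03) and over cDC2-high genes (0.62 and 0.55 against 0.74 and 0.71). The distance between the populations was 1.56 in Nfil3-/- cells and 2.03 in H/H cells; hybrid cells were higher than cDC1 by 1.08 in Nfil3-/- cells and 1.32 in H/H cells over cDC2-high genes, and differed by -0.49 in Nfil3-/- cells and -0.70 in H/H cells over cDC1-high genes. With 2 libraries per group these class means were not tested.

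**Figure D2:**
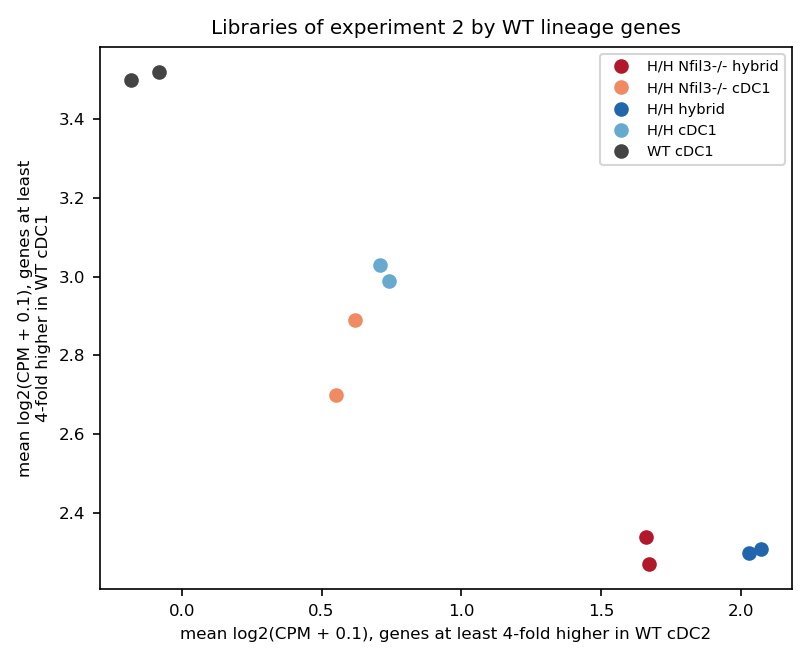
Each point is 1 library of the second experiment, placed by its mean log2(CPM + 0.1) over genes at least 4-fold higher in WT cDC2 (horizontal) and at least 4-fold higher in WT cDC1 (vertical); the axes do not start at 0. Nfil3-/- hybrid libraries lie at 1.66 and 1.67 on the horizontal axis, right of Nfil3-/- cDC1 (0.62 and 0.55) and left of H/H hybrid cells (2.07 and 2.03).

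Most cDC2 markers rose and part of the cDC1 markers fell, where 4.02% of all genes were called higher and 1.26% lower. Of 27 cDC2 markers tested 24 were called higher and none lower, with a median log2 fold change of 2.27, and 18 or 19 were called with single libraries left out. The 3 not called were Tbc1d4 (0.07), Mgl2 (2.28) and Clec10a (2.27), the last 2 read at under 1 CPM in every library of the comparison. Cd4, carried by a large part of splenic cDC2, had 412 and 422 CPM in Nfil3-/- hybrid cells against 82.8 and 70.9 CPM in Nfil3-/- cDC1 (log2 fold change 2.44, adjusted p = 2.29e-08). Itgam, the CD11b chain, had 29.5 and 35.3 CPM in Nfil3-/- hybrid cells against 5.79 and 9.03 CPM in Nfil3-/- cDC1 (log2 fold change 2.13, adjusted p = 1.25e-05). Both groups were apart in each gene, as in 26% of all genes in this direction. Csf1r, the receptor for M-CSF (2.58), Dtx1, a target of Notch (3.74), Esam, an adhesion molecule of Notch2-dependent cDC2 (1.82), and S100a4 (2.15) rose as well.

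None of 31 cDC1 markers was called higher and 14 were called lower, with a median log2 fold change of -0.49. Over all genes 4.02% were called higher and 1.26% lower. With single libraries left out 8 to 10 were called lower. Besides Cd8a, Gcsam, Cd24a, Ttc39a, Clnk and Dbn1, the lower ones included Tlr3, the endosomal sensor of double-stranded RNA, with 60.1 and 49.7 CPM in Nfil3-/- hybrid cells against 115 and 112 CPM in Nfil3-/- cDC1 (log2 fold change -1.05, adjusted p = 0.0148). Septin3, a cytoskeletal GTPase (-1.41), Gpr141b (-1.03), Plpp1 (-0.98) and Ifi205 (-0.69) were also lower. Other defining genes of cDC1 stayed high in hybrid cells. Xcr1, the receptor for XCL1, had 567 and 604 CPM in Nfil3-/- hybrid cells and 678 and 735 CPM in Nfil3-/- cDC1, and did not pass (log2 fold change -0.27, SE 0.116, adjusted p = 0.232). Clec9a, the receptor for actin of dead cells, had 188 and 191 CPM in Nfil3-/- hybrid cells and 209 and 210 CPM in Nfil3-/- cDC1 (log2 fold change -0.14). For Cadm1 the values were 314 and 305 CPM in Nfil3-/- hybrid cells and 336 and 298 CPM in Nfil3-/- cDC1, and for Wdfy4, required for cross-presentation, 795 and 783 CPM in Nfil3-/- hybrid cells and 1040 and 1010 CPM in Nfil3-/- cDC1. In WT cDC2 of the earlier experiment Xcr1 averaged 5.45 CPM and Clec9a 6.64 CPM. Levels between the experiments are set side by side only, since each was scaled alone. Itgae, the CD103 chain, had 289 and 410 CPM in Nfil3-/- hybrid cells and 281 and 317 CPM in Nfil3-/- cDC1, with both groups overlapping.

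**Figure D3:**
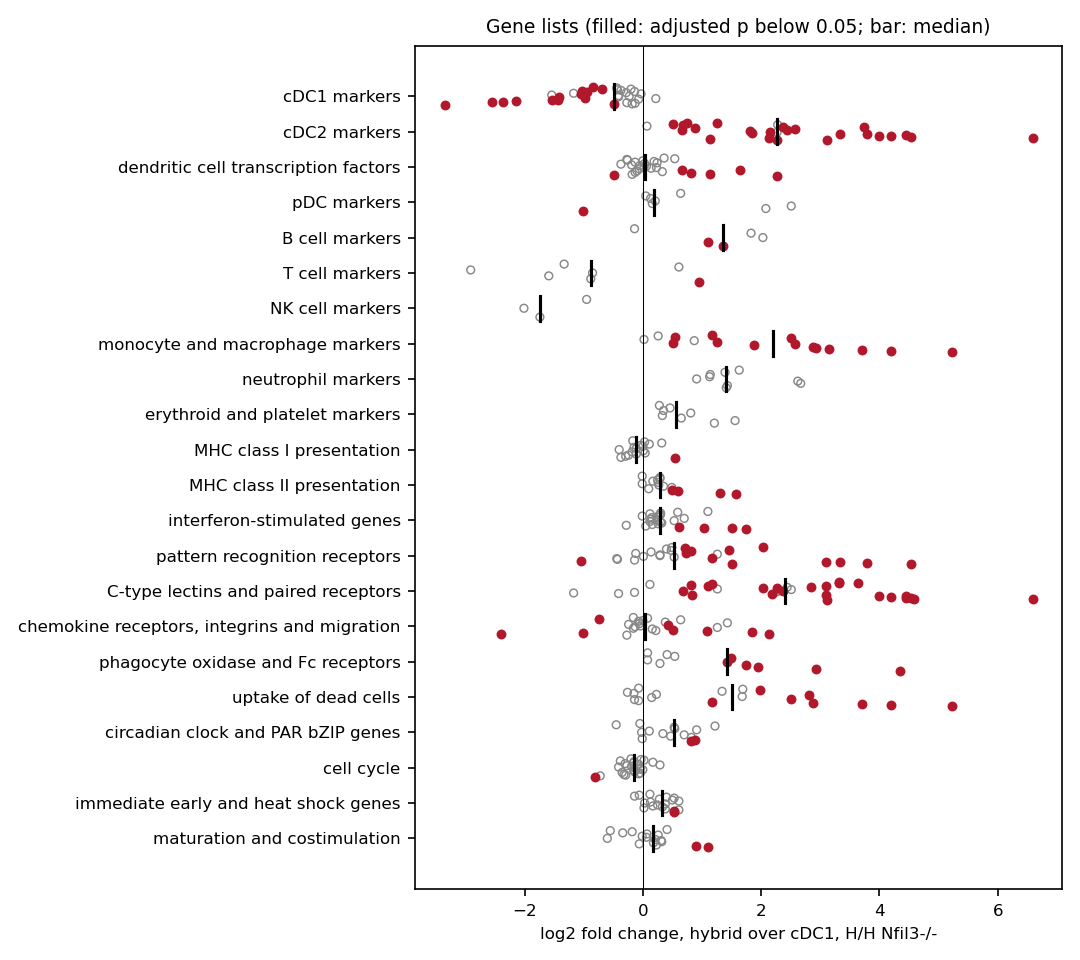
Log2 fold change (horizontal, Nfil3-/- hybrid cells over Nfil3-/- cDC1) of each tested member of the 22 gene lists; filled points passed an adjusted p of 0.05, open points did not, bars mark list medians. The medians of cDC2 markers (2.27), C-type lectins and paired receptors (2.41) and monocyte and macrophage markers (2.20) lie farthest right among lists with called members, and the cDC1 list holds 14 filled points left of 0, against at most 3 in any other list.

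Lectins and paired receptors of innate recognition had nearly as many calls as the cDC2 markers. The shares called over all genes were 4.02% higher and 1.26% lower. Of 32 C-type lectins and paired receptors tested 23 were called higher and none lower (median 2.41), and 17 to 21 were called with single libraries left out. Of the 32, 14 are also on the lists of cDC1, cDC2 or plasmacytoid markers. Clec4a4, the DCIR2 lectin of cDC2, had 6.24 and 5.52 CPM in Nfil3-/- hybrid cells against 0.108 and 0.408 CPM in Nfil3-/- cDC1 (log2 fold change 4.45). Clec7a, the β-glucan receptor Dectin-1, had 277 and 266 CPM in Nfil3-/- hybrid cells against 68.8 and 63.0 CPM in Nfil3-/- cDC1 (log2 fold change 2.04). In both genes the hybrid libraries were close to each other and did not overlap with cDC1, and 26% of all genes lay above cDC1 without overlap. Clec4n, which encodes Dectin-2 (3.09), and the paired receptors Pilrb2 (3.63), Sirpb1b (3.32) and Cd300ld (3.10) rose too. Clec12a, an inhibitory receptor for uric acid crystals, had 246 and 226 CPM in Nfil3-/- hybrid cells and 221 and 214 CPM in Nfil3-/- cDC1 and did not pass.

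Of 25 pattern recognition receptors 11 were called higher and 1, Tlr3, lower (median 0.53), with 5 to 7 higher when single libraries were left out. Among all genes 4.02% were called higher and 1.26% lower. Tlr7, the endosomal sensor of single-stranded RNA, had 22.5 and 24.2 CPM in Nfil3-/- hybrid cells against 1.84 and 1.53 CPM in Nfil3-/- cDC1 (log2 fold change 3.79, adjusted p = 3.36e-07). Tlr1, a partner of TLR2 for lipopeptides, had 53.6 and 63.7 CPM in Nfil3-/- hybrid cells against 20.1 and 22.8 CPM in Nfil3-/- cDC1 (log2 fold change 1.45). All hybrid libraries were above all cDC1 libraries in both genes, as in 26% of all genes. Ddx58, the cytosolic RNA sensor RIG-I (1.5), Nod1, a sensor of peptidoglycan (0.82), Nlrp3 (0.73) and Tlr6 (0.72) were higher as well. The calls of Tlr8 and Tlr5 rest on few reads: Tlr8 had 1.12 and 1.60 CPM in Nfil3-/- hybrid cells and 0.108 and 0 CPM in Nfil3-/- cDC1 and lost its call without cDC1 replicate 2 (adjusted p = 0.0892), and Tlr5 lost its call without any 1 library (adjusted p 0.125 to 0.283). Profilin receptors of cDC1 did not pass: Tlr11 had 107 and 101 CPM in Nfil3-/- hybrid cells and 151 and 129 CPM in Nfil3-/- cDC1 (log2 fold change -0.43, adjusted p = 0.0732), and Tlr12 had a log2 fold change of -0.44.

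Fc receptors and the phagocyte oxidase rose in part, where 4.02% of all genes were called higher and 1.26% lower. Of 11 members 6 were called higher and none lower (median 1.43), and 6 were called with each library left out. Fcgr3 had 16.9 and 19.4 CPM in Nfil3-/- hybrid cells against 0.649 and 1.12 CPM in Nfil3-/- cDC1. Fcer1g, the signalling chain of activating Fc receptors, had 345 and 427 CPM in Nfil3-/- hybrid cells against 96.7 and 133 CPM in Nfil3-/- cDC1 (log2 fold change 1.75). Both sets of libraries were apart, as they were for Fcgr4 (1.95) and Fcgr1 (2.92) and for 26% of all genes in this direction. Of the oxidase, the catalytic chain Cybb had 303 and 352 CPM in Nfil3-/- hybrid cells against 107 and 137 CPM in Nfil3-/- cDC1 (log2 fold change 1.43). The subunits Cyba (0.29), Ncf1 (0.08), Ncf4 (0.08) and Rac2 (0.41) did not pass.

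Genes of dead cell uptake held 8 higher calls among 18 tested and none lower (median 1.51). Over all genes 4.02% were called higher and 1.26% lower. Of the 8, 5 are also on the macrophage list. Axl, a receptor for phosphatidylserine through GAS6, had 15.0 and 23.0 CPM in Nfil3-/- hybrid cells against 3.03 and 2.14 CPM in Nfil3-/- cDC1 (log2 fold change 2.88). Mertk of the same receptor family had 1.35 and 1.69 CPM in Nfil3-/- hybrid cells against 0.108 and 0.408 CPM in Nfil3-/- cDC1 (log2 fold change 2.51). Tgm2, transglutaminase 2, had 207 and 225 CPM in Nfil3-/- hybrid cells against 96.5 and 95.5 CPM in Nfil3-/- cDC1 (log2 fold change 1.17, SE 0.118, adjusted p = 9.56e-06). In each of these 3 genes both hybrid libraries were above both cDC1 libraries, as in 26% of all genes. Clec9a, Cd36 (-0.07), Havcr2, which encodes TIM-3 (0.15), and Timd4 (-0.07) did not pass.

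Among markers of other cell types, those of monocytes and macrophages held the most calls. The shares over all genes were 4.02% called higher and 1.26% lower. Of 16 monocyte and macrophage markers 13 were called higher and none lower (median 2.20), 9 or 10 with single libraries left out, and their summed level was 1530 and 1690 CPM in Nfil3-/- hybrid cells against 841 and 767 CPM in Nfil3-/- cDC1. Adgre1, the F4/80 antigen, had 219 and 222 CPM in Nfil3-/- hybrid cells against 28.7 and 21.3 CPM in Nfil3-/- cDC1 (log2 fold change 3.14). C1qc rose by 3.71 with 5.34 and 7.84 CPM in Nfil3-/- hybrid cells against 0.595 and 0.408 CPM in Nfil3-/- cDC1. In WT cDC2 of the earlier experiment Adgre1 averaged 362 CPM and C1qb 72.9 CPM. Spic and Hmox1, defining genes of red pulp macrophages, did not pass: Spic had 24.6 and 22.6 CPM in Nfil3-/- hybrid cells and 18.9 and 6.94 CPM in Nfil3-/- cDC1, and Hmox1 126 and 134 CPM in Nfil3-/- hybrid cells and 161 and 96.6 CPM in Nfil3-/- cDC1. In bulk RNA, more cells of another type and more RNA per cell cannot be told apart, and the part of macrophages in these rises was not tested.

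No neutrophil marker of 9 tested passed, with a summed level of 50.0 and 95.4 CPM in Nfil3-/- hybrid cells and 36.4 and 29.1 CPM in Nfil3-/- cDC1. All 4 lay above H/H hybrid cells (4.72 and 6.61 CPM) and H/H cDC1 (0.581 and 0.574 CPM), led by Ngp, S100a8 and Ltf, while Ly6g had 3 counts at most. Erythroid and platelet markers summed to 64.8 and 139 CPM in Nfil3-/- hybrid cells and 49.6 and 114 CPM in Nfil3-/- cDC1, higher in replicate 2 of each, with none of 8 called. Of 5 B cell markers tested 2 were higher, Cd22 (1.36) and Cd79b (1.1), while Ms4a1 had 105 and 101 CPM in Nfil3-/- hybrid cells and 109 and 119 CPM in Nfil3-/- cDC1. Cd79b lost its call without hybrid replicate 2 or cDC1 replicate 1 (adjusted p up to 0.300). Of 7 T cell markers Cd5 was called higher (log2 fold change 0.95, adjusted p = 0.0476), a call lost without any 1 library (adjusted p 0.0618 to 0.382), and Cd3e stayed below 1 CPM. Of 3 NK cell markers tested none passed, and Ncr1 was at 0 counts in all 4 libraries. Of 8 plasmacytoid markers Ccr9 was lower (-1.01), also a call lost without either hybrid library or cDC1 replicate 1 (adjusted p up to 0.218), and Siglech was below 1 CPM throughout. Among all genes 4.02% were called higher and 1.26% lower, and the part of these cells in the results was not tested.

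Of 17 MHC class I genes 1, H2-K1, was called higher (log2 fold change 0.54), where 4.02% of all genes were called higher. That call was lost without either hybrid library or cDC1 replicate 2. The peptide transporter gene Tap1 had 489 and 439 CPM in Nfil3-/- hybrid cells and 541 and 407 CPM in Nfil3-/- cDC1. Of 15 MHC class II genes 4 were higher (median 0.29), and 2 or 3 were called with single libraries left out. The endosomal proteases Ctsl (1.57) and Lgmn (1.31) were called in each of these fits. The protease Ctss (0.50) lost its call without any 1 library (adjusted p 0.0719 to 0.142), and H2-DMb2, a chain of the peptide exchange factor H2-M (0.59), without hybrid replicate 1 or cDC1 replicate 2 (adjusted p up to 0.220). Lgmn had 299 and 375 CPM in Nfil3-/- hybrid cells against 143 and 130 CPM in Nfil3-/- cDC1. The invariant chain Cd74 and the class II chains H2-Ab1, H2-Aa and H2-Eb1 had log2 fold changes of 0.26 to 0.35 and did not pass.

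Among 24 interferon-stimulated genes 4 were called higher and none lower (median 0.29): Oas2 (1.75), Ddx58, Oasl2 (1.03) and Ifitm3 (0.61). The shares over all genes were 4.02% higher and 1.26% lower. Oasl2, a relative of the 2'-5' oligoadenylate synthetases, had 109 and 120 CPM in Nfil3-/- hybrid cells against 50.4 and 61.2 CPM in Nfil3-/- cDC1. The call of Oas2 was lost without hybrid replicate 2 or either cDC1 library (adjusted p up to 0.172) and that of Ifitm3 without replicate 1 of either population (adjusted p up to 0.0833). Of 24 genes of chemokine receptors, integrins and migration 5 were higher and 3 lower (median 0.04). Cxcr3, the receptor for CXCL9 and CXCL10, had 53.4 and 46.7 CPM in Nfil3-/- hybrid cells against 91.6 and 75.6 CPM in Nfil3-/- cDC1 (log2 fold change -0.74, adjusted p = 0.0193), and Itgax, the CD11c chain, rose by 0.43. Ccr7, which guides migratory cells to lymph nodes, had 361 and 327 CPM in Nfil3-/- hybrid cells and 455 and 262 CPM in Nfil3-/- cDC1, with overlapping libraries.

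Few proliferation and activation genes were called between the populations, and over all genes 4.02% were called higher and 1.26% lower. Of 27 cell cycle genes Ccne2 was called lower (-0.80) and none higher (median -0.15). Mki67 had 77.9 and 85.1 CPM in Nfil3-/- hybrid cells and 84.2 and 97.0 CPM in Nfil3-/- cDC1. The summed level of the list was 1400 and 1500 CPM in Nfil3-/- hybrid cells and 1630 and 1760 CPM in Nfil3-/- cDC1. The Ccne2 call was lost without either hybrid library or cDC1 replicate 2 (adjusted p up to 0.305). Of 17 maturation genes 2 were higher, Tnfsf9, which encodes 4-1BB ligand (1.1), and Cd274, which encodes PD-L1 (0.90). Cd274 lost its call without hybrid replicate 1 or cDC1 replicate 2 (adjusted p up to 0.0971), and Tnfsf9 without hybrid replicate 1 or either cDC1 library (adjusted p up to 0.0892). Of 19 immediate early and heat shock genes 2 were higher, Nr4a1 (0.53) and Zfp36 (0.52), with a list median of 0.33. Their summed level was 10900 and 10500 CPM in Nfil3-/- hybrid cells and 9120 and 8400 CPM in Nfil3-/- cDC1. Nr4a1 lost its call without hybrid replicate 1 or cDC1 replicate 2 (adjusted p up to 0.450), and Zfp36 without those or hybrid replicate 2 (adjusted p up to 0.260). Of 15 genes of the circadian clock and PAR bZIP family, to which Nfil3 belongs, 2 were higher, Nfil3 and Ciart (0.88), and the call of Ciart was lost without either hybrid library or cDC1 replicate 2 (adjusted p up to 0.316). Dbp and Tef, the activating PAR bZIP factors, did not pass (-0.45 and 0.34).

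The 111 higher and 44 lower calls outside the WT classes, and the 9 calls against them (8 cDC1-high genes higher, 1 cDC2-high gene lower), held genes of several kinds. Falls outside the classes included Fas, the death receptor, with 10.5 and 10.5 CPM in Nfil3-/- hybrid cells against 25.3 and 23.1 CPM in Nfil3-/- cDC1 (log2 fold change -1.20, adjusted p = 0.000523). Vim, vimentin, had 74.6 and 63.9 CPM in Nfil3-/- hybrid cells against 151 and 147 CPM in Nfil3-/- cDC1 (log2 fold change -1.10, adjusted p = 4.62e-05). Serpinb1a, an inhibitor of neutrophil proteases, fell by 1.27. These 3 were lower in hybrid cells of H/H mice as well (log2 fold changes -1.25, -1.0 and -1.5 for Fas, Vim and Serpinb1a). Lgals1, galectin-1, fell by 1.03 but lost its call without hybrid replicate 1 or cDC1 replicate 2 (adjusted p up to 0.151). Among rises, Lilr4b, an inhibitory leukocyte receptor, had 82.3 and 79.3 CPM in Nfil3-/- hybrid cells against 35.5 and 20.7 CPM in Nfil3-/- cDC1 (log2 fold change 1.53). Gbp2b, an interferon-induced GTPase that is cDC1-high, rose by 1.74, a call lost without hybrid replicate 1 or cDC1 replicate 2 (adjusted p up to 0.262). Clec1b (2.04) lost its call without cDC1 replicate 1 (adjusted p = 0.0637), Vcam1 (1.88) without either cDC1 library (adjusted p up to 0.171) and Cd209e (2.19) without any 1 library (adjusted p 0.0748 to 0.238).

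The same comparison in H/H mice, which have Nfil3, was set beside it. Between H/H hybrid cells and H/H cDC1 1811 of 14504 genes (12.5%) were called, 1050 higher (7.24%) and 761 lower (5.25%). At least 2-fold changes made up 518 of the higher (3.57%) and 144 of the lower calls (0.993%). That count was 850 without hybrid replicate 1, 693 without hybrid replicate 2, 1154 without cDC1 replicate 1 and 1158 without cDC1 replicate 2. Of the 583 genes called higher in Nfil3-/- hybrid cells 494 were also called higher in H/H hybrid cells (84.7% of the Nfil3-/- list, 47% of the H/H list). Of the 183 called lower 148 were also lower (80.9% and 19.4%). No gene was called in opposite directions, and 578 of 583 and 181 of 183 had the same sign. Across the 766 called genes the Nfil3-/- and H/H fold changes correlated with Pearson r 0.89 and Spearman rho 0.93, and across all 14504 genes with 0.55 and 0.60; genes do not count as replicates here. These comparisons share no library. In the earlier experiment, with other H/H libraries, 840 of 16036 genes were called higher (5.24%) and 419 lower (2.61%) in hybrid cells, and 430 of 581 and 112 of 183 Nfil3-/- calls recurred there (74% and 61.2% of the Nfil3-/- lists, 52.9% and 26.7% of the H/H lists).

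**Figure D4:**
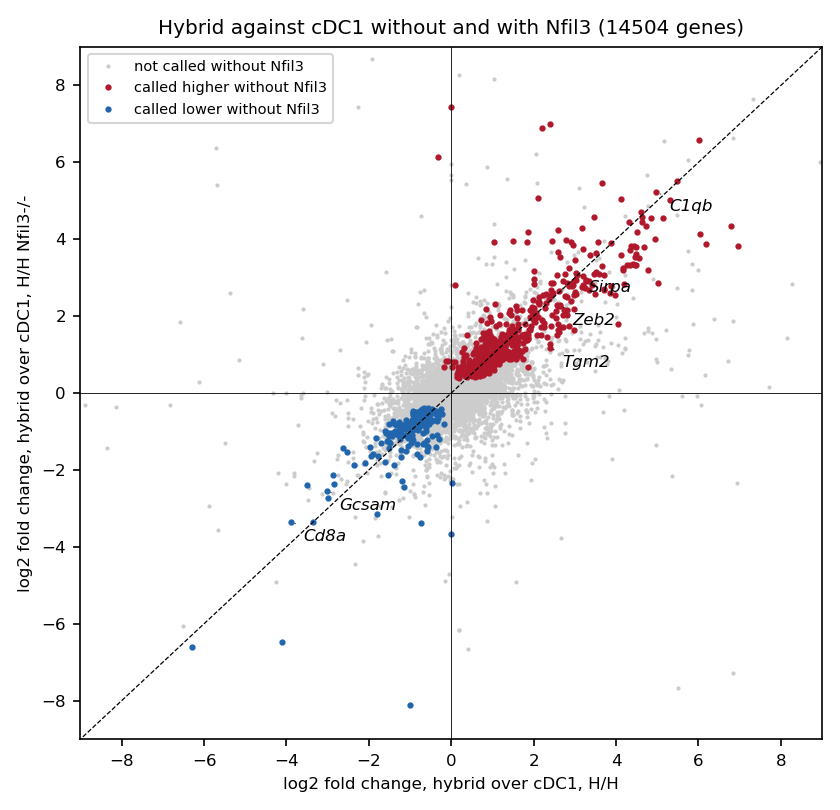
Log2 fold change of hybrid cells over cDC1 in Nfil3-/- mice (vertical) against that in H/H mice (horizontal) for 14504 genes; red and blue points were called higher and lower in Nfil3-/- mice, the dashed line marks equal distances, and 4 genes lie beyond the axes. Most coloured points lie near the line, with Tgm2 below it (1.17 against 2.39).

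Zeb2 differed by 2.27 in Nfil3-/- and 2.63 in H/H cells (38.6 and 46.9 CPM in H/H hybrid cells, 7.22 and 6.57 CPM in H/H cDC1). Sirpa differed by 3.11 in Nfil3-/- and 3.03 in H/H cells, and Cd8a by -3.35 and -3.89. The difference of the distances, Nfil3-/- minus H/H, was -0.36 for Zeb2 (SE 0.390), 0.08 for Sirpa (SE 0.235) and 0.54 for Cd8a (SE 0.400), each with an adjusted p of 1, and differences within about 2 SE of these values cannot be told from them. None of the 12 lineage genes passed this test. The levels themselves stood apart between the genotypes, a difference that was not tested. Both Nfil3-/- hybrid libraries lay below both H/H hybrid libraries in Zeb2. Cd8a was lower in Nfil3-/- cDC1 (37 and 25 CPM) than in H/H cDC1 (80.2 and 93.2 CPM). The share of all genes that stand apart between the genotypes was not counted, here or for the genes below. Each Nfil3-/- group held 1 female and 1 male library, while all H/H libraries were male. Cd209a differed by 4.19 in Nfil3-/- cells and 1.86 in H/H cells, and its difference of 2.33 (SE 0.602) did not pass (adjusted p = 1).

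By class, the distance was shorter in Nfil3-/- cells. Over cDC2-high genes its median log2 size was 0.58 in Nfil3-/- and 0.73 in H/H cells, with 62.6% of genes having a negative difference. Over cDC1-high genes the medians were -0.30 in Nfil3-/- and -0.41 in H/H cells, with 34.8% negative, against 47.9% among genes of neither class. Called shares were lower too: 24.7% of cDC2-high genes were called higher in Nfil3-/- and 37.4% in H/H cells. Of cDC1-high genes 11.3% were called lower in Nfil3-/- and 27.8% in H/H cells. Genes of neither class had fewer calls as well, 0.986% in Nfil3-/- and 3.04% in H/H cells higher, and 0.391% and 3.71% lower. Among all genes 5.28% were called in Nfil3-/- and 12.5% in H/H cells, so fewer calls are not particular to the lineage classes. Of the marker lists, 24 cDC2 markers were higher in each genotype, 14 cDC1 markers were lower in Nfil3-/- and 24 in H/H cells (medians -0.49 in Nfil3-/- and -0.84 in H/H cells), and 13 macrophage markers were higher in Nfil3-/- and 12 in H/H cells. Genes within a class are not independent, and no class difference was tested.

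Gene by gene, 1 of 14504 genes (0.00689%) passed for a difference of the distances, and 510 had an unadjusted p below 0.05. It was Tgm2, on the minus strand of chromosome 2 (158116402 to 158146436, GRCm38), with a difference of -1.22 (SE 0.167, adjusted p = 0.0245). Its level was 207 and 225 CPM in Nfil3-/- hybrid cells and 96.5 and 95.5 CPM in Nfil3-/- cDC1, against 186 and 166 CPM in H/H hybrid cells and 35.1 and 32.0 CPM in H/H cDC1. Both Nfil3-/- cDC1 libraries lay far above both H/H cDC1 libraries, and both Nfil3-/- hybrid libraries a little above both H/H hybrid libraries. In the earlier experiment the H/H distance of Tgm2 was 2.52 (adjusted p = 4.35e-07). The call for the difference was kept without H/H cDC1 replicate 1 and lost without any other of the 8 libraries (adjusted p up to 0.351), and also with a term for the replicate number (adjusted p = 0.0699).

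The genes next in order by p did not pass the adjusted threshold and are given as values. Lrp1, a scavenger receptor, had 22.2 and 28.9 CPM in Nfil3-/- hybrid cells and 8.55 and 8.01 CPM in Nfil3-/- cDC1, against 24.1 and 29.1 CPM in H/H hybrid cells and 3.53 and 3.22 CPM in H/H cDC1 (difference -1.35, adjusted p = 0.437). Hybrid libraries of both genotypes overlapped, while both Nfil3-/- cDC1 libraries lay above both H/H cDC1 libraries. Clnk had 10.2 and 10.2 CPM in Nfil3-/- hybrid cells and 29.2 and 25.8 CPM in Nfil3-/- cDC1, against 2.72 and 2.82 CPM in H/H hybrid cells and 14.6 and 19.4 CPM in H/H cDC1 (difference 1.19, adjusted p = 0.620). Lyz1, a lysozyme nearly identical to Lyz2 so that its reads are uncertain, had 9.90 and 9.71 CPM in Nfil3-/- hybrid cells and 6.60 and 5.61 CPM in Nfil3-/- cDC1, against 45.6 and 53.3 CPM in H/H hybrid cells and 12.0 and 15.2 CPM in H/H cDC1. Its rise in Nfil3-/- cells (0.68) lost its call without any 1 library (adjusted p 0.0582 to 0.265). The lectin Clec4b2 (difference 0.97) rose by 0.84 in Nfil3-/- cells, lost without hybrid replicate 2 or cDC1 replicate 1 (adjusted p up to 0.0707), and had a log2 fold change of -0.12 in H/H cells. Ttc39a (difference 1.00), Gcnt2, a glycosyltransferase (1.41), and Kdr, the VEGF receptor (-1.52), completed the order with Gm19951 and Eif4ebp3. Eif4ebp3, an inhibitor of translation initiation, had 0 counts in both Nfil3-/- hybrid libraries and 67 in both Nfil3-/- cDC1 libraries together, a fall of at least 23.9-fold (adjusted p = 0.000287) against a floor of 3 counts over the hybrid group. It had 1.36 and 1.47 CPM in H/H hybrid cells and 3.23 and 2.5 CPM in H/H cDC1.

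**Figure D5:**
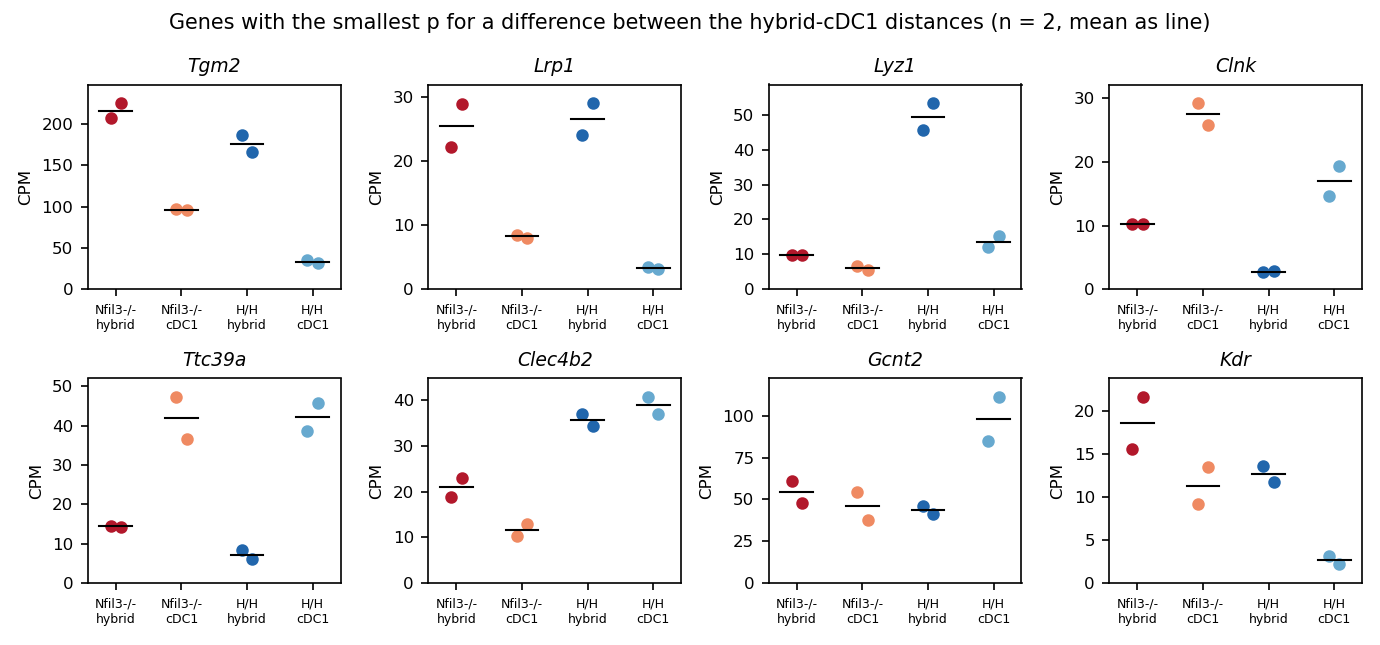
Expression (CPM, linear axes from 0) by library of 8 of the 10 genes with the smallest p for a difference between the hybrid-cDC1 distances (points, 2 libraries; line, mean). Of these only Tgm2 passed the adjusted threshold; its Nfil3-/- cDC1 (96.5 and 95.5 CPM) stand above H/H cDC1 (35.1 and 32.0 CPM).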

How the data were processed

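Bulk RNA-seq of sorted splenic dendritic cells was deposited in expected counts per Ensembl gene, 1 table per experiment. Per the labels' protocols, libraries were made from 10 ng of total RNA (integrity above 9.0) with a SMARTer Ultra Low kit and 12 to 15 PCR cycles. Per the submitters' processing notes, bcl2fastq, DRAGEN and edgeR were used; genome build, annotation and strand setting are not given in the sources used here. Of the deposited expected counts 10.2% (10.8% in the earlier experiment) were not whole. Values were rounded, and 287 repeated lines of 55774 were dropped. Of the gene IDs 99.4% are in GENCODE M21, which gave coordinates.

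All 12 libraries of the second experiment were fitted together (6 groups, 6 residual degrees of freedom) with edgeR 4.0.16 in R 4.3.3: filterByExpr, TMM factors (0.962 to 1.032), robust quasi-likelihood F tests, Benjamini-Hochberg adjustment over 14504 genes, threshold 0.05. SE is the log2 fold change divided by the root of F. The median biological coefficient of variation was 0.138. The earlier experiment (16 libraries, 16036 genes, 8 degrees of freedom) was fitted alone. The fit was also run on simulated data in which only well-read genes were changed. That check covered the Nfil3-/- comparison alone and does not speak about genes with few reads or the difference of the distances. At 2 libraries per group small changes can stay uncalled.

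Named are 12 fixed genes; the 10 largest rises and 10 largest falls among called genes with at least 2-fold change, at least 10 CPM and no overlap, without predicted genes, clones and pseudogenes; up to 4 called members per list; the 10 smallest p of the difference; and up to 5 called genes per direction outside or against the WT classes. Other list members were named after their values were seen. The members and lists were chosen with earlier results of these data known. Alternatives were RLE factors, DESeq2 1.42.0, other filters, a replicate block, only the compared groups, each library left out, and, added after seeing the data, a term for Xist-positive libraries. Some genes are not reported here.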

Additional observations from a re-analysis of the deposited data

Results flagged for a closer look

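For Tgm2 the hybrid-cDC1 distance differed between the genotypes by the test of that difference: the log2 difference, Nfil3-/- minus H/H, was -1.22 (edgeR quasi-likelihood, adjusted p = 0.0245), with the limits given above.

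For Gm19951, a predicted gene, the libraries moved in opposite directions: it had 1.12 and 0.501 CPM in Nfil3-/- hybrid cells against 1.14 and 2.14 CPM in Nfil3-/- cDC1, and 28.1 and 26.0 CPM in H/H hybrid cells against 16.7 and 12.8 CPM in H/H cDC1. The difference of the distances was -1.94 and did not pass (edgeR, adjusted p = 0.998), and both Nfil3-/- groups are near 1 CPM, where the log2 fold change of -1.06 did not pass either (adjusted p = 0.147).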

How the results depend on the processing

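The 766 calls between Nfil3-/- hybrid cells and Nfil3-/- cDC1 became 765 with RLE factors, 882 with DESeq2, 1018 without a filter on low counts, 695 with a stricter filter, 772 with a term for Xist-positive libraries and 883 with only the compared groups. Leaving out each library gave 347 to 519. The H/H comparison gave 693 to 1158 (1811 with all), and WT cDC1 against WT cDC2 5465 to 5636. The single call for the difference of the distances became 7 with DESeq2 and 23 without a filter, and 0 to 2 with single libraries left out. Of 81 named genes 48 kept direction and side of the threshold under every alternative in the Nfil3-/- comparison, and 67 under those that kept all libraries. The difference of the distances turned its sign for 3 lineage genes with a library left out, all with an adjusted p near 1 (edgeR): Irf4 ranged from -0.20 to 0.24, Batf3 from -0.03 to 0.31 and Tcf4 from -0.12 to 0.04. The cause was not tested. Over autosomal genes, deviations of equally numbered libraries correlated with 0.15 in the Nfil3-/- pair and 0.08 in the H/H pair, and the labels do not say what a number shares. With the replicate block 678 genes were called in the Nfil3-/- comparison and 0 for the difference; the named genes Irf4, Irf8, Cd5 and Tgm2 (difference) lost their call. With only the compared groups Nfil3, Ccr9, Cd274, Clec1b, Dkk3, Vcam1, Lyz1, Nr4a1 and Ccne2 lost theirs. With 2 libraries per group, genes below 1 CPM and small differences are the least certain.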
